A study of Rattus norvegicus with 18 samples.

Results

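The Vps, Snx and Chmp genes encode much of the machinery that sorts membrane proteins at endosomes, the compartments that receive material taken up at the cell surface. Members were the genes whose symbol was Vps, Snx or Chmp followed by a number, with at most 1 letter after it for Vps and Chmp. The rule goes by symbol alone, so genes such as Vps72, assigned to no sorting complex here, are counted as members too. The rule found 71 of the 30643 genes in each table, of which 33 were Vps, 30 Snx and 8 Chmp genes. At 4 weeks 67 members had a mean of at least 10 normalised reads and entered the tests (31 Vps, 28 Snx and 8 Chmp), and at 12 weeks 68 did (31, 29 and 8). Chmp4b, a filament-forming ESCRT-III subunit, was not analysed here.

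Male wild type Sprague Dawley rats, 12 weeks old at surgery, had the anterior cruciate and medial meniscotibial ligaments of the knee cut to induce post traumatic osteoarthritis (OA), or had a sham operation that opened the joint and cut neither ligament. Synovium, the lining tissue of the joint, was taken 4 or 12 weeks later, and its cells were sorted on CD11b/c magnetic beads, which bind myeloid cells such as macrophages. The groups were 5 OA and 5 sham libraries at 4 weeks, each from 4 pooled rats, and 4 OA and 4 sham libraries at 12 weeks, each from 3 pooled rats. Every rat had an opened joint, so no group shows unoperated synovium, and a pool hides the spread between rats.

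Endosomal sorting has a few core devices. Retromer, a trimer of Vps35, Vps26 and Vps29, retrieves receptors, and sorting nexins (Snx) bind endosomal lipid and bend the membrane into the tubules that carry cargo away. The CORVET and HOPS complexes tether endosomes before they fuse with each other or with lysosomes. The ESCRT complexes, ending in the Chmp proteins of ESCRT-III and the ATPase Vps4, cut cargo into internal vesicles for degradation in the lysosome. Macrophages rely on this system to mature phagosomes and to recycle integrins and scavenger receptors.

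The libraries held 4662344 to 17235069 recovered reads at 4 weeks and 10976114 to 18080503 at 12 weeks. Sham replicate 3 at 4 weeks stood apart, with the fewest reads and with 2.98% of its reads on ribosomal protein genes against 1.54% to 1.77% in the other 9 libraries of that week. Its summed reads over 10 macrophage markers were also the lowest of that week, at 79048 against 87437 to 110277 in the OA libraries. Log2 fold changes at 4 weeks are therefore given with and without it. All 10 macrophage markers, among them Csf1r, Mrc1 and Adgre1, were found in every library. Fibroblast markers such as Col3a1 and Dcn were abundant too at 4 weeks, with 71827 to 111710 summed reads in OA (median 86591) and 48412 to 112448 in sham (median 60125). The median log2 fold change of the 8 fibroblast markers found was 0.39, and 1 was higher and 1 lower in OA at an unadjusted p under 0.05 in limma. The 5 endothelial markers found, among them Vwf, held 28504 to 39619 summed reads in OA and 30994 to 37219 in sham. Sham replicate 3 held the highest of these sham sums. The median log2 fold change of the endothelial markers was -0.07, with none under 0.05 unadjusted in limma. The part of fibroblasts and endothelial cells in the member values was not tested.

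At 4 weeks no member passed the test for a change between OA and sham (0 of 67 with limma at an adjusted p under 0.05 and a log2 fold change of at least 0.5), against 0% of the 14861 genes tested. As limma called no gene at all, this does not set the members apart. DESeq2 at the same thresholds called 27 genes, none of them a member. At an unadjusted p under 0.05 in limma, 9 members were higher in OA, or 13.4% of those tested, where 4.1% of all genes were. These were Snx1, Snx2, Snx5, Snx6, Snx12, Snx18, Snx20, Chmp6 and Vps41, so 7 of the 28 Snx genes (25%), 1 of the 31 Vps genes (3.23%) and 1 of the 8 Chmp genes (12.5%). No member was lower at that level, against 3.82% of all genes. DESeq2 gave 8 and edgeR 6 members on the higher side. The count on the higher side was 5, 4 and 4 without OA replicate 2, 3 or 4, and stayed between 6 and 12 without any other library. In bulk RNA fewer cells of a type and less RNA per cell cannot be told apart.

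The differences were small. The median log2 fold change (OA minus sham, on log2 of normalised reads plus 1) was 0.10 over the 67 members and 0.03 over all genes tested. It was 0.10 for Vps, 0.12 for Snx and 0.10 for Chmp genes. The estimate was above 0 for 54 members (80.6%), against 57.1% of all genes. Members of a list share libraries and are not independent, so no test was run over them. The 95% confidence interval lay inside 0.5 in either direction for 57 of the 67 members. The 10 others were Chmp4c, Snx18, Snx20, Snx29, Snx30, Vps13a, Vps13c, Vps25, Vps26a and Vps54.

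**Figure D1:**
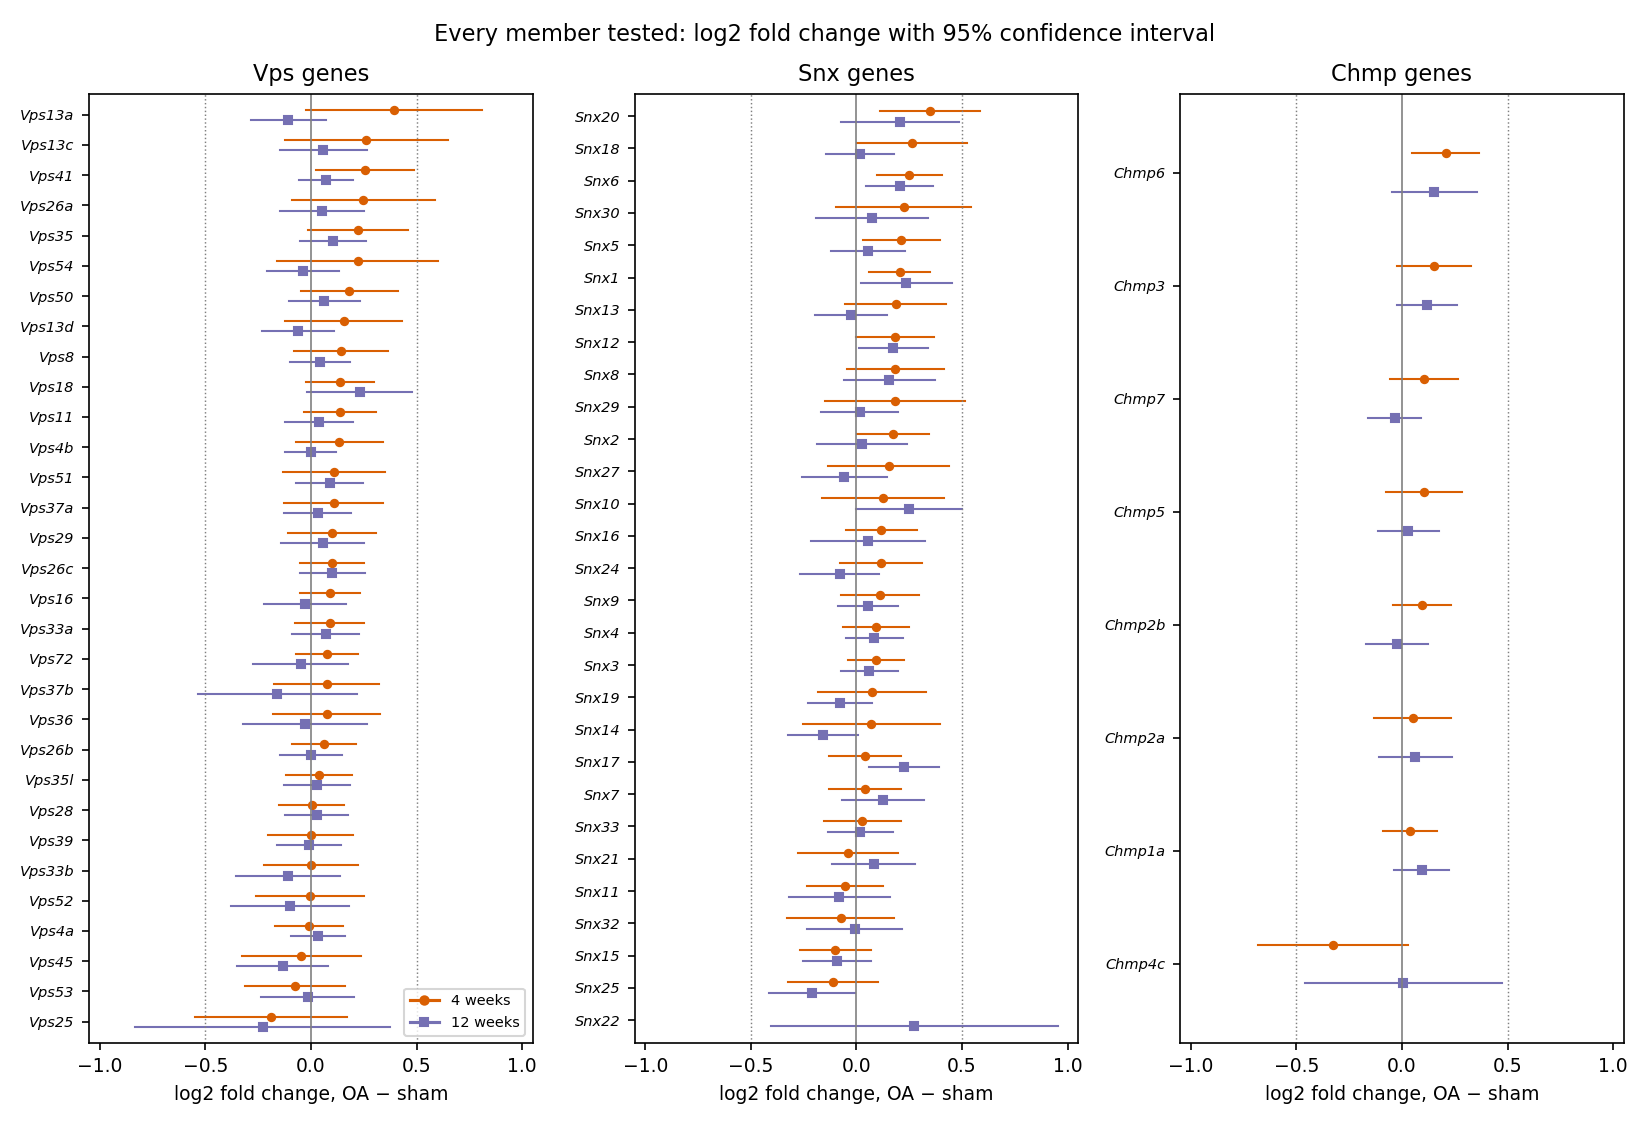
Log2 fold change (OA minus sham) of every member tested, with its 95% confidence interval, for Vps, Snx and Chmp genes in separate panels. Circles show 4 weeks, squares 12 weeks and dotted lines a log2 fold change of 0.5. At 4 weeks 54 of 67 circles lie right of 0, and at 12 weeks 42 of 68 squares do.

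Without sham replicate 3, the medians at 4 weeks were 0.07 for Vps, 0.05 for Snx and 0.09 for Chmp genes, 0.06 for all members and 0.01 for all genes. In that fit 53 of 67 estimates were above 0 (79.1%), against 51.9% of all genes. At an unadjusted p under 0.05 in limma 10 members were higher (14.9%), against 6.17% of all genes, while none was lower, against 4.24%. Snx1, Snx5, Snx6, Snx20, Chmp6 and Vps41 were in both fits, Snx2, Snx12 and Snx18 left, and Chmp3, Vps18, Vps29 and Vps51 entered. The Snx share went from 7 to 4 of 28 and the Vps share from 1 to 4 of 31.

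The library itself can be read by family. The deviation of each member from its mean over the week's 10 libraries had a median of -0.33 (log2) for Vps and -0.26 for Snx genes in sham replicate 3, but 0.04 for Chmp genes. In the other 4 sham libraries the medians ran from -0.07 to 0.02 for Vps, from -0.02 to 0.03 for Snx and from -0.10 to -0.01 for Chmp genes. In the 5 OA libraries they ran from 0.03 to 0.12 for Vps, from 0.03 to 0.13 for Snx and from 0.00 to 0.06 for Chmp genes. Over all genes tested, sham replicate 3 deviated by -0.06. The lowest OA and the highest sham library lay close together, at 0.028 and 0.024 for Vps genes and at 0.031 and 0.030 for Snx genes.

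**Figure D2:**
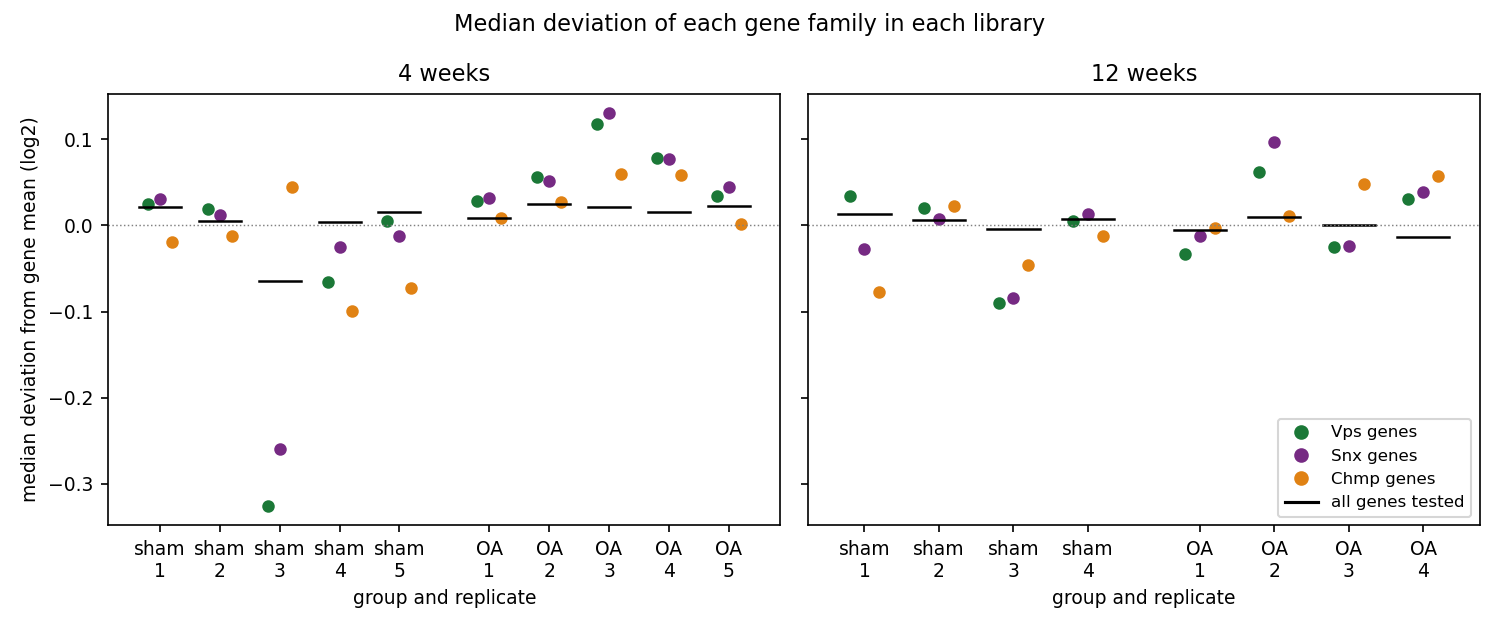
Median deviation (log2) of Vps, Snx and Chmp genes from each gene's mean over the week's libraries, by library, with the median over all genes tested as a black bar. Sham replicate 3 at 4 weeks is at -0.33 for Vps and -0.26 for Snx genes, while its Chmp median is 0.04.

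The spread between replicates sets what could be seen. The median SD of a member (log2) was 0.08 over the OA libraries and 0.17 over the sham libraries at 4 weeks, and 0.09 over the 4 sham libraries left without replicate 3. Over all genes tested these values were 0.14, 0.25 and 0.15. Members therefore varied less between replicates than the median gene did. Genes of matched read level were not compared, so the part of read level in this gap was not tested. At 12 weeks the median SD of a member was 0.09 in OA and 0.12 in sham.

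Promoter windows were read for the members because a shared site would show in their sequence. A window (250 bases before to 50 after the start) was found in RefSeq for 56 of the 71 members, on the GRCr8 assembly. The E-box CACGTG, which reads the same on both strands and is bound by basic helix-loop-helix factors such as Myc, Max and TFEB, was in 12 of the 56 (21.4%), against 9.39% of 10510 genes tested at 4 weeks and 7.08% of 27457 genes with a window. Those 12 were Snx2, Snx8, Snx18, Snx25, Vps8, Vps11, Vps16, Vps26a, Vps26c, Vps33a, Vps37b and Vps50, and none of 5 Chmp genes with a window held it. The longer TCACGTGA, which contains the E-box and forms the core of the motif found at many lysosomal genes, was in 5 members (8.93%), against 1.65% of genes tested and 0.896% of all. The 5 are shown upstream of the start, 5′ to 3′ on the strand of the gene, with each E-box in capitals.
Vps26a (chr20:30976890-30976982, minus strand): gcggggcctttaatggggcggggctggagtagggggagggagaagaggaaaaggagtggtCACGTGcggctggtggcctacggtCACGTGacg
Vps11 (chr8:53595378-53595462, minus strand): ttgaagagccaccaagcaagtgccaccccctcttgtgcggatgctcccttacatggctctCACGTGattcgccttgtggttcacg
Vps16 (chr3:138075579-138075704, plus strand): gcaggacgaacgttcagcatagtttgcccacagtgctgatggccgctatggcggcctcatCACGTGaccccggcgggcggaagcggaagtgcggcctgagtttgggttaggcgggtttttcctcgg
Vps33a (chr12:38685418-38685523, plus strand): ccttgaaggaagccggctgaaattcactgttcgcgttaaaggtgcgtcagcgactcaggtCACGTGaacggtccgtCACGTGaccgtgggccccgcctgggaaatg
Snx2 (chr18:48800518-48800593, plus strand): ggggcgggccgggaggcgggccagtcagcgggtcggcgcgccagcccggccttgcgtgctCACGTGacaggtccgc

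The last E-box before the start lay 9 bases before it in Vps26a, 25 in Vps11, 71 in Vps16, 30 in Vps33a and 16 in Snx2. Vps26a and Vps33a each held a pair of E-boxes in the stretch shown. At 4 weeks the median log2 fold change was 0.14 over the 12 members with an E-box, of which 11 were above 0, and 0.09 over the 42 tested members without one, of which 32 were above 0. These medians were 0.08 (10 of the 12 above 0) and 0.05 (32 of the 42 above 0) without sham replicate 3. At an unadjusted p under 0.05 in limma were 2 of the 12 with an E-box and 5 of the 42 without one. Without sham replicate 3 these counts were 0 of the 12 and 8 of the 42. At 12 weeks the medians were 0.04 and 0.03. The windows of Snx1, Snx5, Snx6, Snx12 and Vps41 did not hold these letters, which says nothing about factors that act elsewhere. No test was made of these shares.

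The retromer-linked sorting nexins Snx1, Snx2, Snx5 and Snx6 pair through their curved BAR domains, Snx1 or Snx2 with Snx5 or Snx6, and tubulate endosomes. All 4 had an unadjusted p under 0.05 in limma at 4 weeks. Snx6 had 1809.5, 1873, 1886, 1838 and 1656 normalised reads in OA replicates 1 to 5 and 1590, 1602, 1374, 1501 and 1554 in sham. Every OA library lay above every sham library, which 1.18% of all genes showed in this direction and 0.693% in the other. The means were 1812 ± 92.4 and 1524 ± 92.8 (SD, n = 5 each), and the log2 fold change was 0.25 (SE 0.07, limma unadjusted p = 0.00382, adjusted p = 0.424).

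Of the members, Snx6 alone had an adjusted p under 0.05 at this week in limma, edgeR or DESeq2. DESeq2, with no fold minimum, gave it an adjusted p of 0.0457 on 10 libraries and 0.0353 without sham replicate 3, where 0.283% and 0.601% of all genes passed. edgeR gave an adjusted p of 0.445, with 6 members higher at an unadjusted p under 0.05. The exact two-sided permutation test on Snx6 gave p = 0.00794, the smallest that 5 libraries against 5 allow. Every gene whose groups do not overlap gets this value, so it only restates the separation given above. Snx1 had the same exact p. Its log2 fold change stayed between 0.21 and 0.28 in the 10 fits that each dropped a single library.

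Snx1 had 1797, 1854, 1963, 2011 and 1819.8 reads in OA and 1654, 1553, 1588, 1647 and 1749 in sham at 4 weeks. It was the other member whose groups did not overlap, so 2 of 67 members (2.99%) showed this. Its log2 fold change was 0.21 (SE 0.07, limma unadjusted p = 0.00885, adjusted p = 0.544), and 0.19 without sham replicate 3. That library was not the lowest for Snx1.

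Snx5 had 3562, 3498, 4109, 3807 and 3277 reads in OA and 3158, 3203, 2764, 3278 and 3327 in sham. The lowest OA library lay among the sham libraries, and sham replicate 3 was the lowest of all. The log2 fold change came to 0.21 (SE 0.08, limma unadjusted p = 0.0245) and 0.17 without that library (unadjusted p = 0.0251). OA replicate 3 was the highest library for Snx5, and also for Snx2, Snx6, Snx20, Chmp6, Vps35 and Vps41, though not for Snx1 or Snx18. Its median deviation was the highest of that week for Vps (0.12) and for Snx genes (0.13). This library also held the most summed reads over 7 neutrophil markers, at 10349. The OA median was 1068 and the sham libraries held at most 3740.5. The part of those cells in the member values was not tested. Snx5 lost its unadjusted p under 0.05 without OA replicate 3 and without OA replicate 4.

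Snx2, the most abundant Snx gene by reads, had 3647, 3797, 3974, 3623 and 3540 reads in OA and 3081, 3619, 2945, 3277 and 3600 in sham. A pair of sham libraries reached the OA range. Its log2 fold change was 0.17 (SE 0.08, limma unadjusted p = 0.0494) with all libraries and 0.13 (unadjusted p = 0.0542) without sham replicate 3. Over the 4 genes the median log2 fold change was 0.21, and 0.18 without that library.

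**Figure D3:**
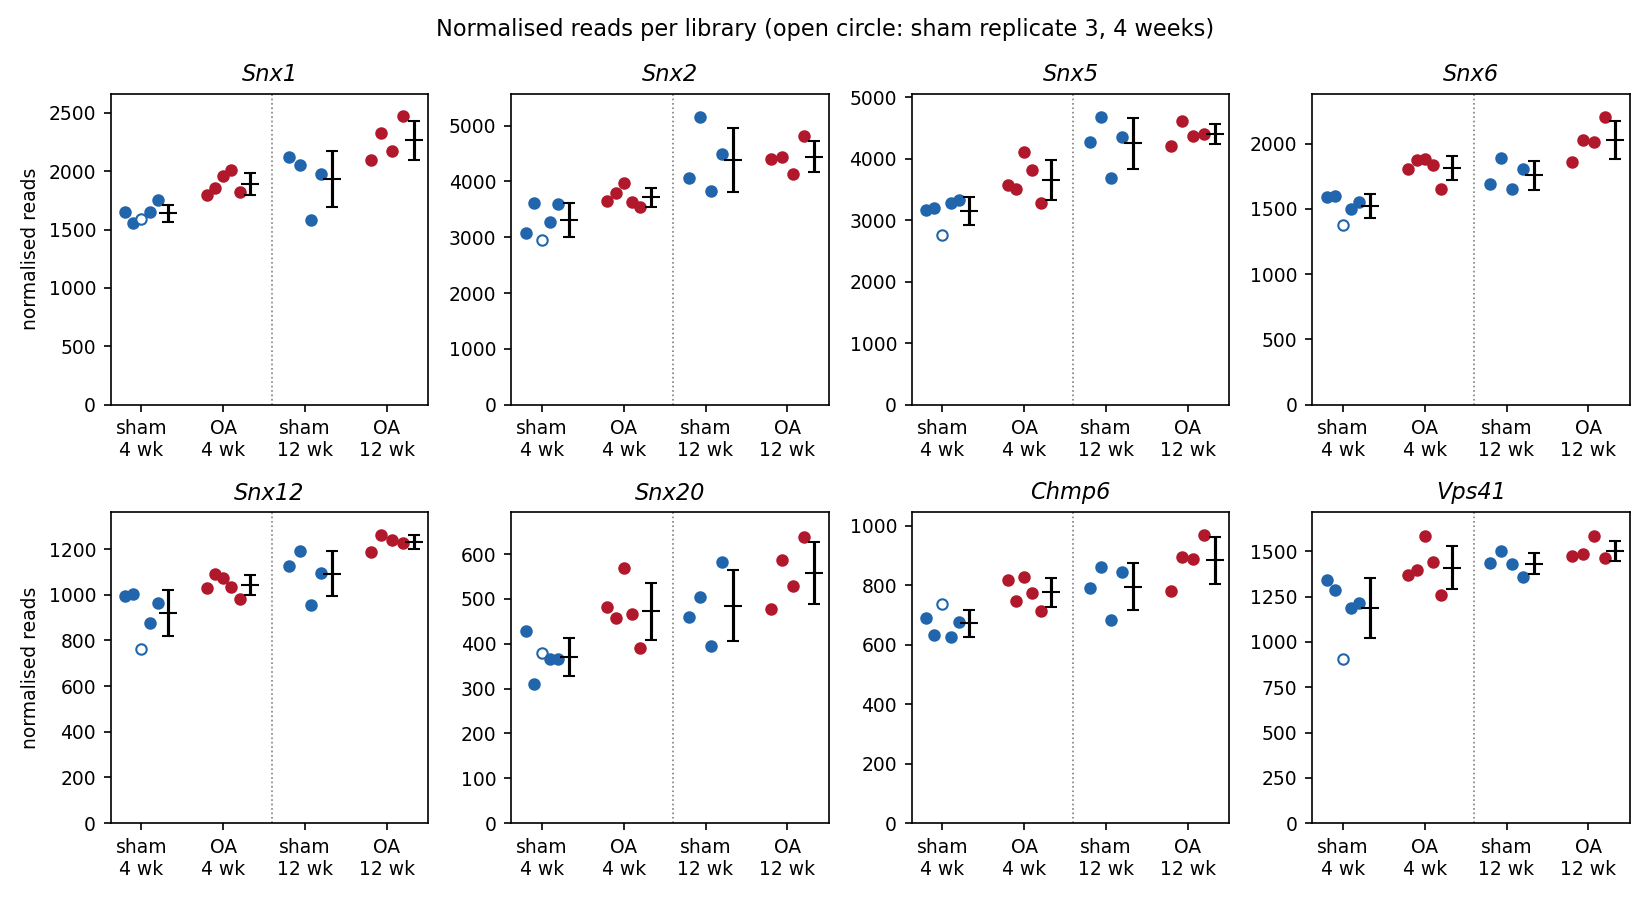
Normalised reads in each library for 8 members with an unadjusted p under 0.05 at 4 weeks, by group (blue sham, red OA), with the mean and SD as a black bar. The open circle is sham replicate 3, and the weeks, parted by a dotted line, were normalised separately. OA and sham do not overlap at 4 weeks for Snx1 and Snx6, and overlap for the other 6.

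Of 12 SNX-BAR genes, 11 were above 0 at 4 weeks (median 0.18), and 5 were higher at an unadjusted p under 0.05. Over all genes 57.1% were above 0 and 4.1% were higher at that level. The 5 include Snx1, Snx2, Snx5 and Snx6, so this is not a separate observation. Without sham replicate 3 the median was 0.08, with 11 above 0 and 3 at that level, against 51.9% and 6.17% of all genes. The gene below 0 in both fits was Snx32, at -0.07 (limma unadjusted p = 0.537), and -0.14 (unadjusted p = 0.226) without sham replicate 3. Snx18, a relative of Snx9 that remodels membrane in endocytosis and autophagy, was the fifth, at 1440.4 ± 56.6 reads in OA and 1219 ± 240 in sham (n = 5 each). The sham libraries ranged from 898 in replicate 3 to 1573 in replicate 1, which was the highest of all 10. Its log2 fold change was 0.26 (limma unadjusted p = 0.0483), and 0.16 (unadjusted p = 0.0755) without replicate 3. Only 1 of the 10 fits that left out a library kept it under 0.05.

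Snx20, a nexin that binds the leukocyte adhesion ligand PSGL-1, had the highest log2 fold change of the Snx genes at 4 weeks. It had 483, 456, 569, 465 and 392 reads in OA and 428, 311, 378, 367 and 366 in sham. Of the sham libraries, replicate 1 reached the OA range. This gave a log2 fold change of 0.35 (SE 0.11, limma unadjusted p = 0.00717, adjusted p = 0.511), and 0.36 without sham replicate 3. Snx12, a small nexin close to the retromer adaptor Snx3, had 1041 ± 43.7 reads in OA and 920.4 ± 101 in sham, with the lowest library, at 764, again sham replicate 3. With all libraries the log2 fold change was 0.18 (limma unadjusted p = 0.0499), and without this one it was 0.12 (unadjusted p = 0.0581). Snx12 and Snx2 were each under 0.05 unadjusted in 3 of the 10 fits that dropped a library. The lowest Snx estimate belonged to Snx25, a nexin with an RGS domain, at -0.11 (unadjusted p = 0.284), and -0.14 without sham replicate 3, where the OA libraries held 426 to 526 reads and the sham libraries 448 to 625.

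The retromer core was above 0 in all 4 genes at 4 weeks, with a median log2 fold change of 0.16 and none at an unadjusted p under 0.05. The median was 0.10 without sham replicate 3, with all 4 above 0 and 1 gene, Vps29, under that level. Vps35, the scaffold of the trimer, had 2658, 2847, 2973, 2815 and 2568 reads in OA and 2833, 2444, 1817, 2277 and 2626 in sham. The groups overlapped, and sham replicate 3 was the lowest library. The fitted log2 fold change was 0.22 (SE 0.11, limma unadjusted p = 0.0648) and 0.13 (unadjusted p = 0.0967) without it.

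Vps26a, an arrestin-like subunit that touches cargo, had 713, 739, 766, 766 and 683 reads in OA and 754, 686, 381, 681 and 667 in sham. Sham replicate 3 alone stood below all others, and the log2 fold change went from 0.25 (unadjusted p = 0.136) to 0.07 (unadjusted p = 0.227) in limma without it. Its paralog Vps26b had 972 ± 56 reads in OA and 930.1 ± 52.2 in sham, a log2 fold change of 0.06 (unadjusted p = 0.381), and 0.07 without sham replicate 3. Vps29, the small subunit that recruits regulators, went the other way with that library. Sham replicate 3 held its highest value, 715 against 512 to 599 in the other sham libraries. It had a log2 fold change of 0.10 (unadjusted p = 0.319) with all libraries and 0.18 (unadjusted p = 0.0182) without sham replicate 3.

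Retriever, the retromer-like complex of Vps35l and Vps26c that recycles cargo chosen by Snx17, had log2 fold changes of 0.04 and 0.10 at 4 weeks, and 0.07 and 0.09 without sham replicate 3. Of the 8 CORVET and HOPS tether genes 6 were above 0 (median 0.11), and the median was 0.07 without that library. Vps41, a HOPS subunit that takes late endosomes to the lysosome, had 1370.0, 1398, 1585, 1439 and 1257 reads in OA and 1339, 1284, 908, 1186 and 1215 in sham. Sham replicate 3 was the lowest library, and the groups overlapped among the others. The log2 fold change came to 0.26 (SE 0.11, limma unadjusted p = 0.0320) and 0.16 (unadjusted p = 0.0341) without it. Vps41 was not under 0.05 unadjusted without OA replicate 2, 3 or 4. The 5 GARP and EARP tether genes, which act between endosomes and the Golgi or in recycling, had a median of 0.11 with 3 above 0, and the median was 0.02 without sham replicate 3.

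Vps13a, a bridge that moves lipid between membranes, had the highest log2 fold change of all members at 4 weeks, 0.39, with a wide interval from -0.03 to 0.81 (limma unadjusted p = 0.0635). Its 5 OA libraries held 1758 to 2088 reads. Of the sham libraries, replicates 3 and 4 held 1014 and 966, and replicates 1, 2 and 5 held 1887, 1765 and 1910, inside the OA range. Without sham replicate 3 its log2 fold change was 0.27 (unadjusted p = 0.152). Vps13c, the Vps gene with the most reads, moved from 0.26 to 0.07 and Vps54 from 0.22 to 0.02 when that library was left out.

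**Figure D4:**
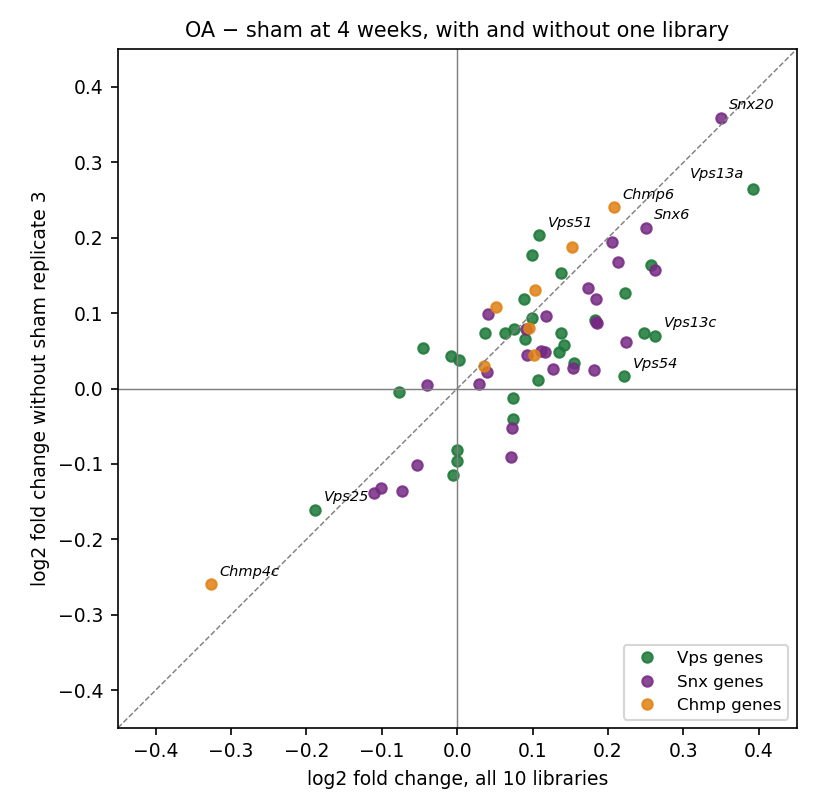
Log2 fold change (OA minus sham) of the 67 members at 4 weeks with all 10 libraries (horizontal) and without sham replicate 3 (vertical), coloured by family, with equal values on the dashed line. Vps13a, Vps13c and Vps54 lie below the line, and Vps51 and Chmp6 lie above it.

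The 3 tested ESCRT-I genes, which help to gather ubiquitinated cargo, lay between 0.00 and 0.11 at 4 weeks, and between -0.01 and 0.04 without sham replicate 3. In ESCRT-II, Vps36 was at 0.07 and Vps25 at -0.19 (unadjusted p = 0.279), the lowest Vps estimate, with only 23.8 to 36.8 reads in a library. Without sham replicate 3 they were at -0.04 and -0.16. Of the 8 Chmp genes, 7 were above 0. Chmp6, which receives the signal from ESCRT-II to start ESCRT-III assembly, had 817, 745, 826, 773 and 715 reads in OA and 689, 631, 736, 626 and 677 in sham. The lowest OA library lay below the highest sham library, which was replicate 3. Its log2 fold change was 0.21 (SE 0.07, limma unadjusted p = 0.0151, adjusted p = 0.570) and 0.24 (unadjusted p = 0.0019) without replicate 3, so this estimate did not rest on the low library.

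Chmp3, which binds Vps4 and helps to close the ESCRT-III spiral, had a log2 fold change of 0.15 (unadjusted p = 0.0802) at 4 weeks and 0.19 (unadjusted p = 0.0167) in limma without sham replicate 3. Chmp4c, a paralog of Chmp4b known from the abscission checkpoint in dividing cells, had the lowest estimate of all members, -0.33 (unadjusted p = 0.0695), and -0.26 without sham replicate 3. It was scarce, at 31.5 to 39.9 reads in OA and 37.7 to 59.1 in sham. The Vps4 ATPases, which take ESCRT-III apart, held 826 ± 23.9 and 833 ± 75.9 reads in OA and sham for Vps4a and 1773 ± 95.4 and 1625 ± 207 for Vps4b (SD, n = 5 each). Their log2 fold changes were -0.01 (unadjusted p = 0.914) and 0.13 (unadjusted p = 0.183). Without sham replicate 3 they were 0.04 and 0.05.

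At 12 weeks no member passed the test (0 of 68 in limma), against 0% of the 14666 genes tested. Here too limma called no gene at all. DESeq2 at the same thresholds called 95 genes, and limma without sham replicate 3 called 81. None of these was a member. At an unadjusted p under 0.05 in limma 4 members were higher in OA (5.88%), where 5.75% of all genes were, and 1 was lower (1.47%), where 6.62% of all genes were. The count on the higher side was 2 without OA replicate 2, without OA replicate 4 or without sham replicate 3, and 4 to 6 without any other library. All 5 were Snx genes, Snx1, Snx6, Snx12 and Snx17 on the higher side and Snx25 on the lower. The share on the higher side was near that of all genes. The smallest adjusted p of a member was 0.325 in limma, 0.326 in edgeR and 0.239 in DESeq2, all for Snx17. The median log2 fold change was 0.03 over the members and -0.01 over all genes, and 42 of 68 members (61.8%) were above 0, against 47.5% of all genes. The 95% confidence interval lay inside 0.5 in either direction for 64 of 68 members, the others being Snx10, Snx22, Vps25 and Vps37b.

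Snx17, the cargo adaptor that returns integrins and lipoprotein receptors to the surface through retriever, had 1132, 1171, 1234 and 1320.2 reads in OA and 984, 1035, 982 and 1158 in sham at 12 weeks. Of the sham libraries, replicate 4 alone reached into the OA range. This gave a log2 fold change of 0.22 (SE 0.08, limma unadjusted p = 0.0135, adjusted p = 0.325), and the exact two-sided permutation p was 0.0571, where 4 libraries against 4 allow no less than 0.0286. At 4 weeks the same gene was at 0.04 (unadjusted p = 0.619 in limma), and at 0.10 (unadjusted p = 0.0877) without sham replicate 3, which held its highest sham value, 1093 reads.

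Snx6 had 1859, 2030.3, 2012 and 2208 reads in OA and 1689, 1889, 1649.7 and 1803 in sham at 12 weeks, with OA replicate 1 inside the sham range. The fitted log2 fold change was 0.21 (SE 0.07, limma unadjusted p = 0.0161, adjusted p = 0.332). Snx1 had 2092, 2325, 2169.6 and 2469 reads in OA and 2121, 2049, 1582 and 1974 in sham, with a log2 fold change of 0.23 (limma unadjusted p = 0.0354). Sham replicate 3 was the lowest for both. Snx2 was at 0.03 (limma unadjusted p = 0.788) and Snx5 at 0.06 (unadjusted p = 0.497). Over Snx1, Snx2, Snx5 and Snx6 the median was 0.13 at 12 weeks, with all 4 above 0. It was 0.07, with 2 of the 4 above 0, without sham replicate 3. Snx12 had 1189, 1260.3, 1241 and 1228 reads in OA and 1124, 1193, 955 and 1096 in sham, with a log2 fold change of 0.17 (limma unadjusted p = 0.0374), and again the lowest library was sham replicate 3.

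Snx25 had 507, 515, 507 and 445 reads in OA and 538, 533, 677 and 545 in sham at 12 weeks. Every OA library lay below every sham library, which 3.44% of all genes showed in this direction, and 1 of 68 members (1.47%). No member lay wholly above, against 2.85% of all genes. The log2 fold change came to -0.21 (SE 0.09, limma unadjusted p = 0.0454, adjusted p = 0.398). It stayed under 0.05 unadjusted in 2 of the 8 fits that each dropped a library. Its relatives Snx13, Snx14 and Snx19 were also below 0, between -0.16 and -0.03.

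Without sham replicate 3 of 12 weeks, Snx6 and Snx17 kept an unadjusted p under 0.05 in limma and were the only members that did (2 of 68, 2.94%), against 6.39% of all genes higher and 6.47% lower. In that fit 34 of 68 estimates were above 0 (50%), against 45.7% of all genes. Snx1 was then at 0.14, Snx12 at 0.11 and Snx25 at -0.13. This library also had the lowest sum over the macrophage markers at 12 weeks, 98950 against 121618 to 140571 in OA. Its endothelial marker sum was the highest of that week, 46204 against 28937 to 35239 in OA. Among the sham libraries it held the highest fibroblast marker sum too, 89980. At 12 weeks the fibroblast markers stood higher in OA (83898 to 110352 summed reads against 58405 to 89980 in sham), with 6 of 8 higher and 1 lower at an unadjusted p under 0.05, and the part of other cells in the member values was not tested.

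Retromer at 12 weeks was close to 0. Vps35 had 3027 ± 169 reads in OA and 2819 ± 195 in sham (n = 4 each), a log2 fold change of 0.10 (limma unadjusted p = 0.167). Vps26a was at 0.05 (unadjusted p = 0.570), Vps29 at 0.06 (unadjusted p = 0.544) and Vps26b at 0.00 (unadjusted p = 0.999). Vps18, the shared core subunit of CORVET and HOPS, had the highest Vps estimate, 0.23 (unadjusted p = 0.0655), where sham replicate 3 held 698 reads and the other sham libraries 935 to 988. Vps25 had the lowest, -0.23 (unadjusted p = 0.419), on 17.2 to 34.8 reads. Vps4a was at 0.04 (unadjusted p = 0.551) and Vps4b at 0.00 (unadjusted p = 0.987).

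Of the Chmp genes at 12 weeks, Chmp6 had the highest log2 fold change, 0.15 (limma unadjusted p = 0.123), and Chmp3 the smallest p (0.0931, log2 fold change 0.12). Chmp7, which brings ESCRT-III to the nuclear envelope, had the lowest, -0.03 (unadjusted p = 0.552). The highest Snx estimate was that of Snx22, 0.27 (unadjusted p = 0.390), which had 7.51 to 16.1 reads in a library and passed the minimum mean only at this week. Its mean was 11.8 in OA and 9.55 in sham, so it passed only through the group where it was higher. At 4 weeks the means were 7.71 in OA and 11.5 in sham.

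The weeks were set side by side for the 67 members tested at both, with different rats in every library. Of these, 38 were above 0 at both weeks, 10 below 0 at both, 16 above at 4 and below at 12 weeks, and 3 the reverse. The same counts were not taken over all genes, so they do not show that the weeks agree. Taken singly, 80.6% of members were above 0 at 4 weeks and 61.8% at 12 weeks, against 57.1% and 47.5% of all genes. The share of members at 12 weeks was 50% without sham replicate 3. Snx1, Snx6 and Snx12 were higher in OA at an unadjusted p under 0.05 in limma at both (3 of 67, 4.48%), where 1.59% of the 14420 genes tested at both weeks were. With sham replicate 3 of each week left out, Snx6 alone was (1 of 67, 1.49%), against 1.5% of all genes. Snx12 lost this level at both weeks without that library, and Snx1 lost it at 12 weeks. The difference of the OA effect between the weeks was tested in limma on log2 CPM over all 18 libraries. No member differed at an adjusted p under 0.05 (0 of 67), against 0% of 14420 genes, and none at an unadjusted p under 0.05, against 3% of all genes. edgeR likewise gave no member at either level.

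The closest to a difference was Vps13a, with -0.46 (12 minus 4 weeks, 95% interval -0.94 to 0.01, unadjusted p = 0.0567 in limma), and -0.34 without sham replicate 3 of 4 weeks. Snx17 was next, with 0.22 (-0.03 to 0.47, unadjusted p = 0.0817). For Snx6 the difference was -0.01, with an interval from -0.20 to 0.18, and for Snx1 it was 0.06, from -0.16 to 0.29. The intervals leave room for differences of about the size of the effects themselves.

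**Figure D5:**
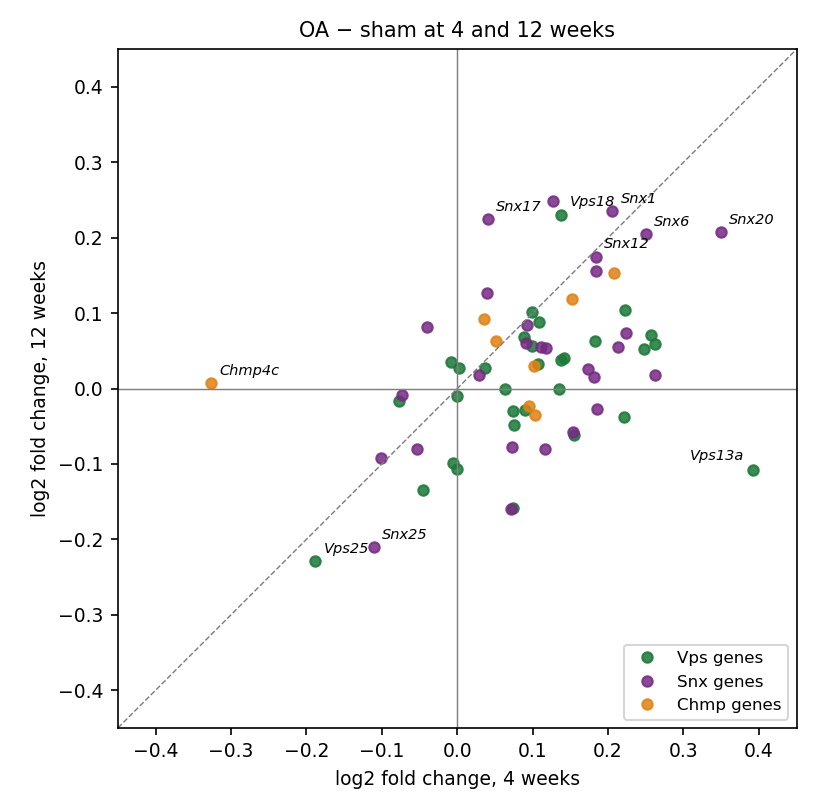
Log2 fold change (OA minus sham) of the 67 members tested at both weeks, at 4 weeks (horizontal) and 12 weeks (vertical), coloured by family, with equal values on the dashed line. Snx1, Snx6, Snx12 and Snx20 are above 0.17 at both weeks, and Vps13a is at 0.39 and -0.11.

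Other genes of the same pathway were taken from a list of 55, of which 53 were tested. At 4 weeks 3 were higher at an unadjusted p under 0.05 in limma, none was lower, and 41 of 53 were above 0 (median 0.09). Over all genes 4.1% were higher, 3.82% were lower and 57.1% were above 0, against 5.66%, 0% and 77.4% of the 53. Leaving out sham replicate 3, 5 of the 53 were higher, 1 was lower and 36 were above 0 (median 0.04). These shares were 9.43%, 1.89% and 67.9%, against 6.17%, 4.24% and 51.9% of all genes. In the fit with all libraries the 3 were Ccdc93, a CCC subunit that works with retriever (0.34, unadjusted p = 0.0021, adjusted p = 0.403), the CCC subunit Commd8 (0.23, unadjusted p = 0.0317) and Fig4, a phosphatase of the PI(3,5)P2 kinase complex (0.18, unadjusted p = 0.0201). Ccdc93 held 952 to 1120 reads in OA and 710 to 918 in sham, without overlap, and its log2 fold change was 0.29 without sham replicate 3. Without that library Commd8 was at 0.17 (unadjusted p = 0.0521 in limma) and Fig4 at 0.15 (unadjusted p = 0.0151). Of 11 tested CCC genes 10 were above 0, and all 11 without sham replicate 3. The 5 WASH genes, which build actin on endosomes, were all above 0 (median 0.17; 4 of 5 and 0.10 without sham replicate 3), while the 15 ESCRT-0 and accessory genes had a median of 0.05, and of -0.01 without sham replicate 3.

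At 12 weeks 4 of the 53 were higher and 3 lower at an unadjusted p under 0.05 in limma, and 30 were above 0 (median 0.02). These shares were 7.55%, 5.66% and 56.6%, against 5.75%, 6.62% and 47.5% of all genes. The higher genes were M6pr, a receptor that brings hydrolases to endosomes (0.28, unadjusted p = 0.00872), Commd9 (0.21), Commd8 (0.23) and Ccdc93 (0.18). The lower were Sort1, the sorting receptor sortilin (-0.26, unadjusted p = 0.0346), the ESCRT-I subunit Mvb12b (-0.29, unadjusted p = 0.0262) and Mitd1, which acts with ESCRT-III in cell division (-0.19, unadjusted p = 0.0461). None passed after adjustment, and without sham replicate 3 of 12 weeks 1 was higher and 4 were lower at that level. These shares were 1.89% and 7.55%, against 6.39% and 6.47% of all genes.

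Members under the minimum mean were few. Vps37c, Vps37d and Snx31 were under it at both weeks, and Snx22 at 4 weeks. Vps37c and Vps37d, alternative ESCRT-I subunits, had means of 7.21 and 4.94 reads at 4 weeks and 7.61 and 4.74 at 12 weeks. Snx31, a relative of Snx17, had 0 reads in 4 of the 5 OA libraries of 4 weeks and 13.9 in sham replicate 3, whose count of 3 reads is worth 6.96. Snx22 had 5.82 to 8.93 reads in OA and 8.29 to 16.2 in sham at 4 weeks. Among tested members, mean reads ran from 30.4 (Vps25) to 4338 (Vps13c) at 4 weeks and from 10.7 (Snx22) to 5665 (Vps13c) at 12 weeks, without correction for gene length.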

How the data were processed

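RNA of CD11b/c-sorted synovial cells was measured in 18 libraries. The authors took quality metrics of the reads from fastp 0.20.0, mapped the rat reads with STAR 2.7.6a, removed duplicates with Sambamba and counted reads per gene with featureCounts 2.0.0, whose strand setting is not given in the sources used here. The deposited signal is the count of each gene divided by DESeq2 1.24.0 size factors, set within each week, so levels were not compared between weeks. The deposited tables also hold the authors' own OA against sham comparison as log2 fold changes, a test score and p-values, none of which was used. Whole reads were recovered from the steps of the values (100% of values whole, tolerance 0.1 reads), and 3 reads equal 2.06 to 6.96 normalised reads in a library.

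Genes with a mean of at least 10 were tested within each week with limma 3.58.1 (R 4.3.3) on log2 of normalised reads plus 1, with an intensity trend and Benjamini-Hochberg adjustment over all genes tested. A call needed an adjusted p under 0.05 and a log2 fold change of at least 0.5. Every unadjusted or adjusted p without another tool's name is limma's, and intervals are 95%. The difference between weeks was tested over all 18 libraries in limma, with the recovered reads put on a log2 CPM scale (TMM scaling, prior count 2). Single genes also had an exact two-sided permutation test. edgeR 4.0.16 and DESeq2 1.42.0 on recovered reads, other scalings, pseudocounts and minimum levels, sample quality weights, a replicate block and leaving out each library were alternatives. In simulated data with 200 genes changed by 1 on the log2 scale, limma recovered 77.5% at 4 weeks, 77.5% at 12 weeks and 65.5% for the difference. No member had an estimate that large, so these shares do not apply to differences of the size seen here. Each simulated gene had a single dispersion over the libraries, so an outlying library was not simulated.

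Members and gene lists were chosen with earlier results of these data known. Named members were those with an unadjusted p under 0.05 (up to 10 each way, up to 8 for the difference), the retromer core, Chmp4b, Vps4a and Vps4b, and in each family and week the smallest p and the highest and lowest fold change. Other members named with values (such as Vps13c, Vps18 and Vps51 at 4 weeks, Vps54, Vps36, the retriever genes and, at the other week, Chmp3 and Snx17) were chosen after their values were seen. So were Snx32 at 4 weeks, and Snx2 and Snx5 at 12 weeks. Replicates differed beyond sampling noise in all 32 pairs (chi-square per degree of freedom 5.84 to 38.8). The study's methods name more replicates at 12 weeks than the 4 libraries a group analysed here. Promoter windows came from RefSeq (GRCr8), with no coordinates moved between builds.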

Additional observations from a re-analysis of the deposited data

Results flagged for a closer look

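Of 84 groups of 4 or 5 libraries examined, 8 held a library far from the others by Dixon's criterion, where chance gives about 1 in 20. At 4 weeks sham replicate 3 was the outlying library in all 5 cases. It held 2760 normalised reads of Snx5 against 3160 to 3330 in the other sham libraries, 381 of Vps26a against 667 to 754, and 1270 of Vps4b against 1650 to 1800. Its median log2 deviation was -0.325 over the Vps genes, where the other sham libraries lay between -0.0655 and 0.0243. Over the Snx genes it was -0.26, against -0.0248 to 0.0304.

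At 12 weeks sham replicate 3 held 677 reads of Snx25 against 533 to 545 in the other sham libraries and 698 of Vps18 against 935 to 988. OA replicate 4 held 445 reads of Snx25 against 507 to 515 in the other OA libraries. The low and high libraries of Snx25 thus lay on opposite sides of its OA and sham groups.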

How the results depend on the processing

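Of 985 values recomputed under an alternative, 934 kept their direction and stayed within the spread between replicates or, for counts, close to the value reported. The cause of the other changes was not tested. The scarce members Snx22, Vps25 and Chmp4c had the widest intervals at 12 weeks. No member was called in limma under any alternative. With DESeq2 and no fold minimum, chosen after seeing the data, 1 member passed at 4 weeks on 10 libraries and 1 on 9 libraries without sham replicate 3. Members higher at an unadjusted p under 0.05 numbered 4 to 12 at 4 weeks and 2 to 6 at 12 weeks when a library was left out. Members lower numbered 0 to 1 and 0 to 2. With every gene that had a read, 1 was lower at 4 weeks, and at 12 weeks 0 were lower with TMM scaling, edgeR or DESeq2. For the difference between weeks, 0 to 2 members were under 0.05 unadjusted.

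The median log2 fold change at 12 weeks was -0.0172 for Vps genes with sample quality weights, and with a library left out it ran from -0.0136 to 0.0299 for Vps and from 0.0302 to 0.089 for Chmp genes. The log2 fold change of Vps4a at 4 weeks was 0.0485 with quality weights and 0.0345 (edgeR), 0.0396 (DESeq2) and 0.0356 (TMM) on 9 libraries without sham replicate 3, and ran from -0.0398 to 0.0426 with a library left out. At 12 weeks Vps26b was at 0.0114 (TMM), 0.014 (edgeR) and 0.00126 (DESeq2), and Vps4b at 0.0105 (TMM) and 0.0103 (edgeR). With a library left out at 12 weeks, Vps26a ran from -0.0214 to 0.115, Vps26b from -0.0333 to 0.0399, Vps29 from -0.00886 to 0.138 and Vps4b from -0.0168 to 0.0192.

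Libraries with the same replicate number are different rats, and their deviations correlated by -0.131 to 0.298, so the numbers were not taken as pairs. With the replicate block, 4 members were higher at 4 weeks and 7 at 12 weeks at an unadjusted p under 0.05, and 1 had such a p for the difference. Only replicate 3 at 12 weeks correlated best with its own number.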
